A study of Mus musculus with 9 samples.

Results

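Colon macrophages that lacked either of 2 subunits of the phagocyte NADPH oxidase were compared, both knockouts together, with macrophages of wild type (WT) mice. The comparison was defined by genotype. The 6 knockout libraries, 3 of p47phox-/- and 3 of gp91phox-/- mice, were set against 3 WT libraries, and the mean of each knockout genotype carried the same weight. All 9 libraries of the series entered, and 14404 of the 42454 genes in the deposited table were tested, those that reached 10 normalized counts in 3 or more libraries. The cells had been sorted as Ly6C low and MHC class II positive out of the lamina propria of the colon, the connective tissue that carries its epithelium, from mice aged 6 weeks. All 3 groups shared the sort, the tissue and the age, and no treatment is named in the labels. p47phox-/- mice lack the protein encoded by Ncf1, and gp91phox-/- mice the protein encoded by Cybb; no driver or cell type that would restrict either loss is named in the labels. The labels do not give the strain, the sex, the mutated part of either gene or whether WT mice were littermates. They also do not say that each library came from a separate animal, so the p-values measure the spread between these libraries, which may be technical.

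The phagocyte NADPH oxidase moves electrons from NADPH to oxygen and so makes superoxide, the source of the oxidative burst. gp91phox is its catalytic subunit in the membrane, and p47phox is the cytosolic subunit that organises assembly, so that loss of either removes the burst. In people, mutations in these genes cause chronic granulomatous disease, in which infections are joined by excess inflammation and often by colitis. Macrophages of the colon lamina propria come largely from blood monocytes that lose Ly6C as they mature, and they are known for IL-10 production and for taking up dying cells and bacteria. By its title, the series asks how reactive oxygen species bear on the development of these cells.

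Ncf1 (chr5:134220053-134229628, GRCm38.p6), the gene targeted in p47phox-/- mice, had 10066, 8990 and 10815 normalized counts in the WT libraries, 2718, 3733 and 3133 in p47phox-/- and 13618, 12136 and 13365 in gp91phox-/-. All p47phox-/- libraries were below all others, and all gp91phox-/- libraries were above WT. The log2 fold change was -1.65 ± 0.14 (standard error) in p47phox-/- (limma adjusted p = 0.000348) and 0.39 ± 0.14 in gp91phox-/- (adjusted p = 0.118). Cybb lies on chromosome X and was listed at 0 in every library, WT included, so its values check nothing and the gp91phox-/- label was not checked. The other measured oxidase genes showed little change. Of 9 tested genes of the oxidase and its relatives, Ncf1 alone was called in both knockouts together, with opposite signs in the 2 genotypes (log2 fold change -0.63 ± 0.12, adjusted p = 0.0148), and it was not called without WT replicate 1 (adjusted p = 0.0707) or WT replicate 3 (adjusted p = 0.0971). Cyba, which encodes the membrane partner of gp91phox, was at 0.42 ± 0.15 (adjusted p = 0.173).

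Libraries held 31141107 to 52797368 reads assigned to genes. p47phox-/- replicates 2 and 3 had reads on 14323 and 14268 genes, against 15825 to 18760 in the other 7 libraries. Macrophage genes were high in every library: the summed level of 14 macrophage identity genes, among them Cd68, Csf1r, Adgre1 and C1qa, was 603412 to 810278 normalized counts in WT, 696128 to 917959 in p47phox-/- and 777825 to 899624 in gp91phox-/-. None of the 14 was called in both knockouts together by limma, edgeR or DESeq2, and 2 had an unadjusted p under 0.05. In bulk samples such as these, fewer cells of a type and less RNA per cell cannot be told apart.

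Of the 14404 genes tested, 452 (3.14%) were called at an adjusted p under 0.05, 200 higher (1.39%) and 252 lower (1.75%) in the knockouts. In 419 of these the log2 fold change from WT had the same sign in both genotypes. These were 197 higher (1.37% of all genes tested) and 222 lower (1.54%). The remaining 33 had opposite signs, 3 higher and 30 lower in the mean of both. A shared sign did not mean a shared size: the knockouts themselves were called different (adjusted p under 0.05) in 185 of the 419 and not in 234. Across all genes tested, 1430 (9.93%) differed between the knockouts. Among the 197 shared higher genes the median log2 fold change was 0.71 in p47phox-/- and 0.95 in gp91phox-/-. It was -0.57 and -1.74 among the 222 shared lower genes. The change was of greater size in gp91phox-/- in 140 of the 197 and in 181 of the 222. In some genes of shared sign 1 genotype barely moved, such as Cpm, at -0.03 in p47phox-/- and -5.13 in gp91phox-/-. Both genotypes were set against the same 3 WT libraries, so a WT library that stands apart moves both values in 1 direction. A call on the mean of both genotypes also favours equal signs. The share of equal signs over all genes tested was not counted, so 419 of 452 has no background here.

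All 6 knockout libraries lay above all 3 WT libraries for 158 of the 197 shared higher genes, and below them for 103 of the 222 lower genes. Without regard to any test, the libraries were separated in this way upward in 489 genes (3.39% of those tested) and downward in 473 (3.28%). When the 6 knockout libraries were treated as 1 group, so that the difference between the genotypes counted as spread, limma called 29 genes (0.201%), 20 higher and 9 lower, and 1584 had an unadjusted p under 0.05. The number called depended on the WT libraries: it was 223 without WT replicate 1, 174 without replicate 2 and 202 without replicate 3. It was 258 without gp91phox-/- replicate 2, and 253 (1.81%) without both p47phox-/- libraries with few detected genes.

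**Figure D1:**
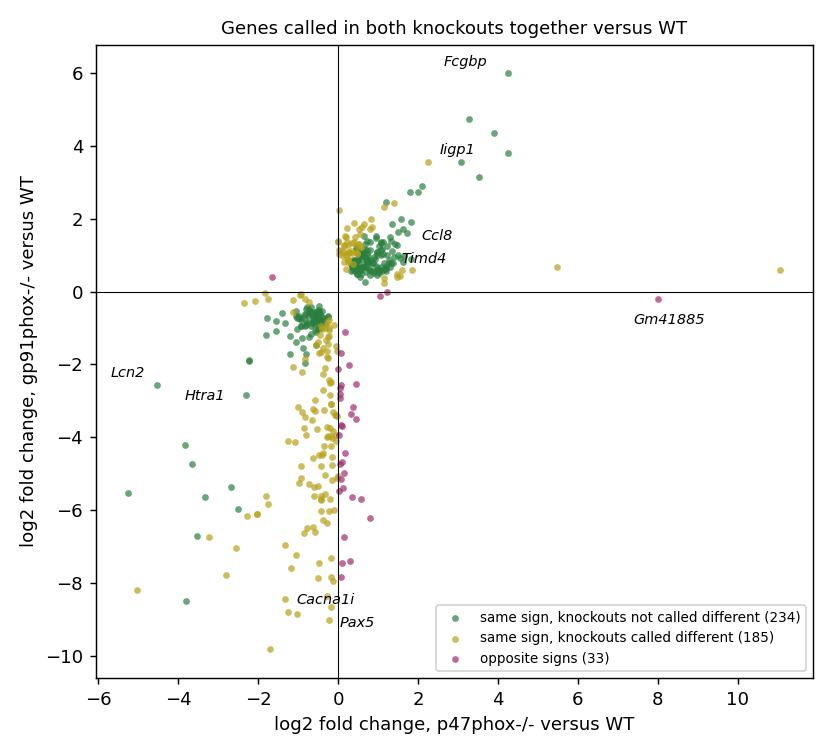
Log2 fold change in gp91phox-/- (vertical axis) against that in p47phox-/- (horizontal axis), each versus the same 3 WT libraries, for the 452 genes called in both knockouts together; each point is a gene. The 197 genes higher in both lie in the upper right and the 222 lower in both in the lower left. A group of B cell genes such as Pax5 lies far down near a horizontal value of 0.

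Genes of the interferon-inducible GTPases rose together. These enzymes, the immunity-related GTPases (IRG) and the guanylate-binding proteins (GBP), are induced chiefly by interferon gamma and attack the vacuoles of bacteria and parasites inside cells. Of 19 tested members of the list, 11 were called higher and 0 lower. Their median log2 fold change was 1.03, against -0.02 over all genes tested, and 1.39% of all genes tested were called higher. The list's median was 0.44 in p47phox-/- and 1.54 in gp91phox-/-. As to their sequences, the windows below come from the region 250 bases before to 50 bases after the RefSeq start (GRCm38.p6). They are shown because these 3 IRG genes were called higher in both knockouts together and each holds an interferon response word there. In p47phox-/- and gp91phox-/-, log2 fold changes were 0.53 and 1.31 for Igtp, 0.44 and 1.20 for Irgm1 and 0.23 and 1.35 for Irgm2. The knockout libraries of Irgm2 overlapped WT. Capitals mark matches to GAAANNGAA, the core of the interferon-stimulated response element (ISRE), and to TTCNNNGAA, the gamma-activated site (GAS), each searched on both strands; other letters are in lower case.

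Igtp, chr11:58199477-58199576, plus strand, first base at -79: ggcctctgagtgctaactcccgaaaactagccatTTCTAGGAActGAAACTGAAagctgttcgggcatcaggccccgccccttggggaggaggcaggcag
Irgm2, chr11:58214868-58214967, plus strand, first base at -109: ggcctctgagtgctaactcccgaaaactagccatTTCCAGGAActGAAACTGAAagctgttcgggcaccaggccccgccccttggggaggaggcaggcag
Irgm1, chr11:48871400-48871499, minus strand, first base at -79: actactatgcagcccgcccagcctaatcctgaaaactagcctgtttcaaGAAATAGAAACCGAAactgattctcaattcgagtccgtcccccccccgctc

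The windows of Igtp and Irgm2, which are neighbours in the genome, were identical at 98 of 100 bases, and in both the GAS match began 11 bases before the ISRE match. In Irgm1 the capitals are 2 overlapping ISRE matches. Among the 12 list members with a promoter in the RefSeq table, 11 (91.7%) held an ISRE match and 7 (58.3%) a GAS match. Of all 27025 genes with a promoter in that table, 9.76% held an ISRE match and 9.55% a GAS match. A match describes the letters and is not a measured binding site.

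Iigp1, an IRG effector, was at 204, 168 and 336 normalized counts in WT, 1136, 714 and 1580 in p47phox-/- and 1729, 3428 and 3308 in gp91phox-/-. Every knockout library exceeded every WT library, and those of gp91phox-/- were the highest. The combined log2 fold change was 2.92 ± 0.29 (7.55-fold, adjusted p = 0.000437), with 2.26 ± 0.34 in p47phox-/- and 3.57 ± 0.34 in gp91phox-/-, and the genotypes were called different (adjusted p = 0.0302). Gm4951, another IRG gene near Iigp1, was at 40.6, 52.1 and 56.7 in WT, 242, 293 and 141 in p47phox-/- and 265, 392 and 514 in gp91phox-/-. All knockout libraries were above WT, and it rose by 2.50 ± 0.29 (adjusted p = 0.000903).

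Gbp6, a guanylate-binding protein, was at 472, 564 and 589 in WT, 1126, 806 and 941 in p47phox-/- and 1501, 2424 and 2707 in gp91phox-/-. The 3 groups followed each other without overlap, and the rise was 1.40 ± 0.19 (adjusted p = 0.00161). Igtp was at 606, 630 and 594 in WT, 809, 792 and 1064 in p47phox-/- and 1235, 1648 and 1706 in gp91phox-/-, and it rose by 0.92 ± 0.15 (adjusted p = 0.00584). These 4 genes kept the call in each fit that left out 1 library. The other 7 called, Irgm1, Irgm2, Gbp3, Gbp4, Gbp5, Gbp8 and Ifi47, had combined log2 fold changes of 0.55 (Gbp3) to 1.19 (Gbp4), and each lost the call without at least 1 WT library. Their highest adjusted p was 0.168, for Gbp8 without WT replicate 2. The number called was 4 without WT replicate 1, 8 without p47phox-/- replicates 2 and 3 and 2 with the knockouts as 1 group.

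The difference between the genotypes was itself called in 8 of the 11, Gbp5 among them. Its normalized counts were 818, 874 and 841 in WT, 1177, 916 and 1273 in p47phox-/- and 1864, 3646 and 4422 in gp91phox-/-. Log2 fold changes were 0.40 and 1.88 in the 2 genotypes. Type I interferon-stimulated genes, a list that includes the Ifit, Oas and Mx families, had 1 of 35 tested called higher and 0 lower. Their median was 0.12, with -0.055 in p47phox-/- and 0.32 in gp91phox-/-, and the knockouts were called different in 5 members. Their summed level was 51179 to 60396 in WT, 53840 to 60860 in p47phox-/- and 55468 to 88790 in gp91phox-/-. In the fits without 1 library, 0 to 2 members were called higher.

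Chemokines that draw monocytes rose in both knockouts. Ccl2, Ccl7, Ccl8 and Ccl12 encode chemokines of the monocyte chemoattractant protein family and lie close together on chromosome 11 between 82035577 and 82116799. Ccl8 was at 2031, 1836 and 2671 normalized counts in WT, 6486, 9175 and 7442 in p47phox-/- and 5728, 13042 and 7141 in gp91phox-/-. All knockout libraries were above WT and the genotypes overlapped each other. It rose by 1.87 ± 0.23 (3.65-fold, adjusted p = 0.000967).

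Ccl2, the founding member, was at 4746, 3024 and 3961 in WT, 9416, 10878 and 10769 in p47phox-/- and 6103, 11770 and 12349 in gp91phox-/-. gp91phox-/- replicate 1 lay between WT and the other knockout libraries, and the combined rise was 1.37 ± 0.21 (2.59-fold, adjusted p = 0.00442). Ccl12 was at 240, 288 and 296 in WT, 534, 1009 and 700 in p47phox-/- and 1018, 1901 and 1719 in gp91phox-/-. It rose by 1.92 ± 0.23 (3.79-fold, adjusted p = 0.000967) and more in gp91phox-/- than in p47phox-/- (difference 1.05 ± 0.27, adjusted p = 0.0281). Ccl7 was at 5540, 3175 and 4154 in WT, 9651, 11910 and 9420 in p47phox-/- and 6728, 17094 and 14437 in gp91phox-/-. All knockout libraries were again above WT, and it rose by 1.40 ± 0.26 (adjusted p = 0.0119). Ccl7 was no longer called when WT replicate 2 (adjusted p = 0.082) or 3 (adjusted p = 0.0639) was left out, and the other 3 kept theirs in each fit that left out 1 library. Ccl11, an eosinophil chemokine whose gene lies between Ccl7 and Ccl12, was low (mean 51.9 in WT) and not called (-0.45 ± 0.53, adjusted p = 0.734).

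Across the chemokine list, 9 of 26 tested were called higher and 1 lower, with a median of 0.56. Besides the 4 above these were Ccl4, Cxcl1, Cxcl2, Cxcl9 and Pf4. Cxcl2, a neutrophil attractant, was at 18114, 14882 and 16830 in WT, 31230, 33296 and 30179 in p47phox-/- and 21445, 36163 and 37423 in gp91phox-/-. Its rise was nearly the same in both genotypes (0.93 ± 0.20 and 0.89 ± 0.20, difference -0.04 ± 0.20, adjusted p = 0.925), and the combined call (adjusted p = 0.0122) was lost without WT replicate 2 (0.0748) or 3 (0.0621). Other members differed between the genotypes. Cxcl1, a related attractant, averaged 4964 ± 803 (SD, n = 3) in WT, 14609 ± 2385 in p47phox-/- and 6942 ± 2421 in gp91phox-/-. Cxcl9, a T cell attractant induced by interferon gamma, averaged 2481 ± 380, 3895 ± 37.9 and 9562 ± 4083. The knockouts were called different in both (adjusted p = 0.00846 for Cxcl1 and 0.0155 for Cxcl9).

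Ccl5, also a T cell attractant, was the chemokine called lower (-1.17 ± 0.26, adjusted p = 0.0332). It was at 2650, 3485 and 2847 in WT, 678, 682 and 754 in p47phox-/- and 1327, 2815 and 4022 in gp91phox-/-, so gp91phox-/- overlapped WT. In the 9 fits without 1 library, Ccl4 lost the call in 7 (highest adjusted p = 0.206), Ccl5 in 6 (0.150), and Cxcl1 (0.105), Cxcl9 (0.0742) and Pf4 (0.109) in 2 each, WT replicate 2 being among the libraries left out each time. The number of chemokines called higher was 3 without WT replicate 2, 3 without p47phox-/- replicates 2 and 3 and 2, Ccl2 and Ccl8, with the knockouts as 1 group, where Ccl12 had an adjusted p of 0.0672. Without the mean-variance trend Ccl2 was not called (adjusted p = 0.0567).

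**Figure D2:**
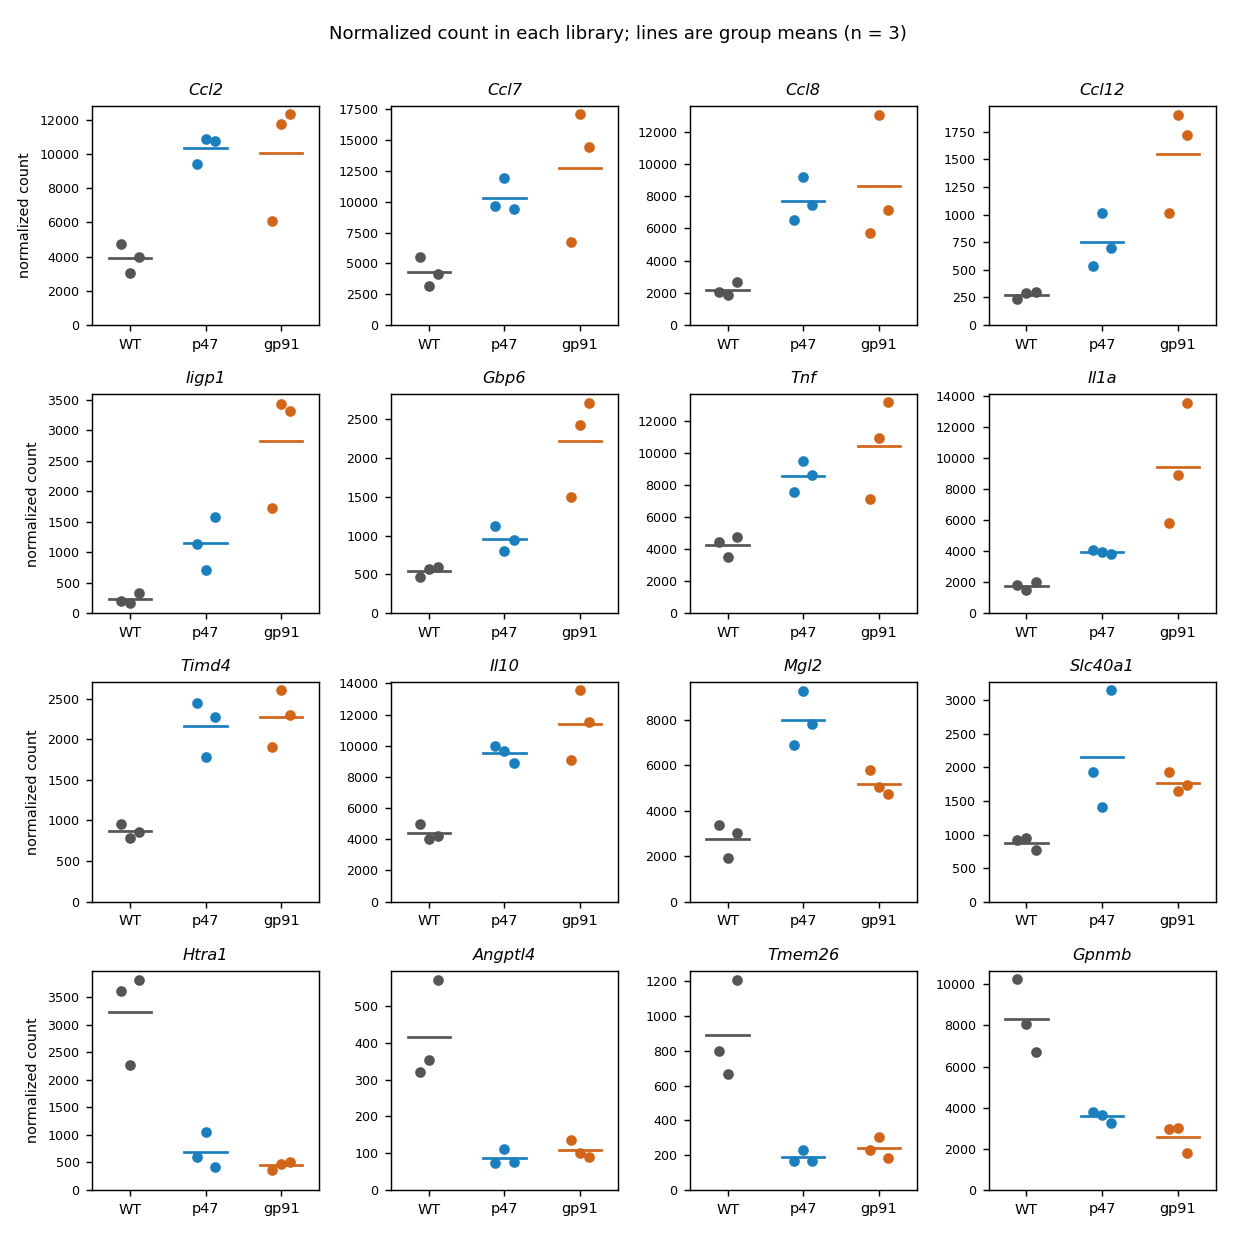
Normalized count (vertical axes, from 0) of 16 genes in each library of the 3 groups; points are libraries and lines are group means (n = 3). In each panel down to Slc40a1 all 6 knockout points lie above the 3 WT points, and in the panels of Htra1, Angptl4, Tmem26 and Gpnmb all lie below them.

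Inflammatory cytokines and targets of NF-kB, the transcription factor downstream of Toll-like receptors and TNF, had 12 of 35 tested called higher and 0 lower, with a median of 0.58. The 4 windows below, from the same RefSeq table, are shown because these genes rose and hold a match to GGANTTTCC (capitals; both strands searched), a core of the NF-kB site. In Nfkbia the first capitals are an ISRE match on the other strand.

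Nfkbia, chr12:55492627-55492726, minus strand, first base at -79: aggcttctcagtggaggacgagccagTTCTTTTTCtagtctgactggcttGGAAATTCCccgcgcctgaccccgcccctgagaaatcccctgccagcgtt
Tnfaip3, chr10:19015390-19015489, minus strand, first base at -79: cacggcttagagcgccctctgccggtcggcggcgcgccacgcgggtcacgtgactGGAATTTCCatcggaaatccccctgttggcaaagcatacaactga
Icam1, chr9:21015742-21015841, plus strand, first base at -198: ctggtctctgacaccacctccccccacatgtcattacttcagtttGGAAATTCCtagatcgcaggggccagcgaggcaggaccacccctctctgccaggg
Cxcl2, chr5:90903758-90903857, plus strand, first base at -141: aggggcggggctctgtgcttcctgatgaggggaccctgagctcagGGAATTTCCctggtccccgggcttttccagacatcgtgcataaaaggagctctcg

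Of the 197 genes higher in both genotypes, 147 had a promoter in the table, and 15 (10.2%) held an NF-kB match. The share was 1.68% of the 10932 tested genes with a promoter, 1.45% of all genes in the table and 2.11% (3 of 142) of the genes lower in both. An ISRE match was held by 17% of the higher set (25 of 147), 10.6% of the lower set and 8.95% of tested genes. Matches to TGANTCA, the AP-1 word, were held by 10.2% of the higher set, 7.04% of the lower set and 6.83% of tested genes. A GAS match was held by 10.9% of the higher set, 11.3% of the lower set and 8.26% of tested genes. These shares are descriptions; the higher set includes genes that have long been known as NF-kB targets and were placed in the list for that reason.

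Tnf, the founding inflammatory cytokine of its family, was at 4418, 3502 and 4757 normalized counts in WT, 7533, 9494 and 8609 in p47phox-/- and 7115, 10897 and 13181 in gp91phox-/-. No knockout library reached down to the WT range, and Tnf rose by 1.14 ± 0.18 (2.21-fold, adjusted p = 0.00469). Il1a, an alarm cytokine, was at 1838, 1481 and 2024 in WT, 4068, 3945 and 3834 in p47phox-/- and 5788, 8902 and 13528 in gp91phox-/-. It rose by 1.74 ± 0.21 (adjusted p = 0.000967), to different extents in the genotypes (1.16 ± 0.24 and 2.33 ± 0.24, adjusted p of the difference = 0.00968).

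Nfkbia, Tnfaip3 and Nfkbiz, whose products act on NF-kB signalling, were among the 12 called higher. Nfkbia, which encodes the inhibitor that holds NF-kB in the cytosol, was at 14829, 15009 and 13434 in WT, 26539, 26314 and 26450 in p47phox-/- and 19548, 25990 and 29640 in gp91phox-/-. The rise was 0.83 ± 0.13 (1.77-fold, adjusted p = 0.00582) and the genotypes were not called different (difference -0.10 ± 0.15, adjusted p = 0.728). Tnfaip3, encoding the deubiquitinase A20, was at 16058, 16269 and 17541 in WT, 23479, 18814 and 21118 in p47phox-/- and 39110, 44717 and 42426 in gp91phox-/-. Its combined rise of 0.84 ± 0.11 (adjusted p = 0.00171) came mostly from gp91phox-/- (1.34 ± 0.13), with 0.34 ± 0.13 in p47phox-/- (adjusted p = 0.242). Nfkbiz, a nuclear member of the inhibitor family, averaged 10604 ± 1523 in WT, 15461 ± 1728 in p47phox-/- and 31437 ± 1093 in gp91phox-/-, and rose by 1.06 ± 0.12 (adjusted p = 0.000813).

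Icam1, the adhesion molecule for leukocyte integrins, was at 12479, 10346 and 12453 in WT, 18394, 23223 and 23567 in p47phox-/- and 21560, 19357 and 19709 in gp91phox-/-, and rose by 0.83 ± 0.12 (adjusted p = 0.00304), with 0.88 ± 0.14 in p47phox-/- and 0.79 ± 0.14 in gp91phox-/-. Some calls came from 1 genotype. Ccrl2, a chemerin-binding receptor, averaged 9421 ± 952 in WT, 9456 ± 140 in p47phox-/- and 24442 ± 715 in gp91phox-/-, and Ptgs2, the inducible cyclooxygenase, averaged 4379, 4494 and 21758, and p47phox-/- overlapped WT for both. Il1b, which encodes the secreted interleukin-1, was not called (0.71 ± 0.20, adjusted p = 0.0829), with values of -0.13 in p47phox-/- and 1.55 in gp91phox-/-. Nfkb1, Nfkb2, Rel and Relb, which encode NF-kB subunits themselves, were at -0.01 to 0.19, and none was called.

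Of the 12, Tnf, Il1a, Nfkbia, Nfkbiz, Tnfaip3, Icam1 and Ccrl2 kept the call in each fit that left out 1 library. The other 5 were Ptgs2, Cd40, Birc3, Zc3h12a and Marcksl1, which all lost it without WT replicate 2, with Zc3h12a the least stable (lost in 7 of 9 fits, highest adjusted p = 0.158 without WT replicate 3). Without p47phox-/- replicates 2 and 3, 9 were called. With the knockouts as 1 group 3 were called, Tnf, Nfkbia and Icam1, and Il1a (adjusted p = 0.102), Nfkbiz (0.192), Tnfaip3 (0.296) and Ccrl2 (0.5) were not. Tnf was not called without the mean-variance trend (0.0564). Immediate-early genes, which include genes induced by tissue dissociation, stood beside these results: 3 of 24 were called higher, Egr2, Ier3 and Btg2, with a median of 0.18 (highest adjusted p without 1 library 0.137, 0.172 and 0.0808, without WT replicate 2, 3 and 1). Their part in the inflammatory and chemokine results was not tested. Mir155hg, the host transcript of the inflammation-linked miR-155, was at 152, 137 and 106 in WT, 368, 396 and 186 in p47phox-/- and 350, 941 and 1136 in gp91phox-/-. It rose by 1.83 ± 0.36 (adjusted p = 0.0161) but was not called without WT replicate 1 (adjusted p = 0.0549), 2 (0.0704) or 3 (0.0962).

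Several genes of mature resident gut macrophages rose in both genotypes. Timd4, a phosphatidylserine receptor that marks long-lived gut macrophages, was at 958, 784 and 860 normalized counts in WT, 2448, 1786 and 2273 in p47phox-/- and 1904, 2611 and 2302 in gp91phox-/-. The lowest knockout library was well above the highest WT library. Its log2 fold changes were 1.31 ± 0.16 and 1.38 ± 0.16, with a combined rise of 1.35 ± 0.14 (2.54-fold, adjusted p = 0.000477). Il10, the cytokine that restrains gut inflammation, was at 4972, 4028 and 4232 in WT, 9991, 9658 and 8883 in p47phox-/- and 9056, 13595 and 11496 in gp91phox-/-. It rose by 1.23 ± 0.13 (2.35-fold, adjusted p = 0.000541), with no overlap between knockout and WT libraries. Timd4 and Il10 were also called with the knockouts as 1 group (adjusted p = 0.0052 and 0.00843).

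Cd209f, a C-type lectin of the DC-SIGN family, was at 797, 611 and 597 in WT, 1439, 1861 and 1747 in p47phox-/- and 970, 1210 and 1307 in gp91phox-/-, and rose by 1.07 ± 0.15 (adjusted p = 0.00238). Mgl2, a lectin for galactose-type sugars and a marker of alternative activation, was at 3355, 1941 and 3042 in WT, 6908, 9301 and 7810 in p47phox-/- and 5787, 5073 and 4741 in gp91phox-/-. It rose by 1.25 ± 0.17 (adjusted p = 0.00166), with the higher values in p47phox-/- for both lectins, though neither difference between the genotypes was called (adjusted p = 0.0727 and 0.0657). Slc40a1, the iron exporter ferroportin, was at 915, 954 and 768 in WT, 1929, 1408 and 3151 in p47phox-/- and 1936, 1653 and 1734 in gp91phox-/-. The rise of 1.12 ± 0.20 (adjusted p = 0.0113) lost its call with WT replicate 3 left out (adjusted p = 0.0755).

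Across the list of mature macrophage genes, 8 of 36 were called higher and 2 lower, with a median of 0.29 and 30 of 36 above 0. The 14 macrophage identity genes, none of them called, had a similar median of 0.24, with 13 of 14 above 0. Cd163, the haemoglobin scavenger receptor, Siglec1 and Trem2 were also called higher in both, at 0.82, 0.69 and 0.63, and each lost the call in 3 or more fits without 1 library, those without each WT library among them (highest adjusted p = 0.0994, 0.154 and 0.108). Folr2 was called (0.60 ± 0.14, adjusted p = 0.0397) although its gp91phox-/- value was -0.01, and it lost the call in 5 fits (highest 0.202, without WT replicate 3). The number called higher was 3 without WT replicate 3. C1qa, C1qb and C1qc, the complement genes of this lineage, were at 0.25 to 0.31 and not called. Cx3cr1, the fractalkine receptor, went opposite ways (-1.79 in p47phox-/- and 1.95 in gp91phox-/-) and gave 0.08 ± 0.50 in the combined comparison (adjusted p = 0.956).

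Gpnmb, a lysosomal glycoprotein of lipid-laden macrophages, and Cd209a, a lectin also counted among the dendritic cell markers, were the 2 members of that list called lower. Gpnmb was at 10245, 8048 and 6702 in WT, 3786, 3650 and 3269 in p47phox-/- and 2964, 3007 and 1802 in gp91phox-/-, and fell by 1.45 on the log2 scale (standard error 0.18, adjusted p = 0.000976), with no overlap between knockout and WT libraries. Cd209a changed in 1 genotype, at 0.38 in p47phox-/- and -3.17 in gp91phox-/-, and its combined value was -1.40 ± 0.29 (adjusted p = 0.0248). Of 18 monocyte genes, F13a1 was called higher and Thbs1 and Spn lower, with a median of -0.28. The fall of Thbs1 was mostly in p47phox-/- (-1.76, against -0.195 in gp91phox-/-), and the knockouts were called different (limma adjusted p = 0.000733). F13a1 lost the call in 8 of the 9 fits without 1 library, all except that without p47phox-/- replicate 2 (highest adjusted p = 0.152), Thbs1 in 2 (highest 0.0645) and Spn in 5 (highest 0.137), both highest without WT replicate 2.

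Some genes fell strongly in both knockouts. Htra1, a secreted serine protease that can cleave TGF-beta family proteins and matrix, was at 3608, 2277 and 3814 normalized counts in WT, 591, 1050 and 420 in p47phox-/- and 352, 475 and 514 in gp91phox-/-. p47phox-/- replicate 2 was the highest of the knockout libraries and still below all of WT. It fell by 2.57 on the log2 scale (standard error 0.26, 5.93-fold, adjusted p = 0.000462), by 2.30 in p47phox-/- and by 2.83 in gp91phox-/-. Tmem26, a membrane protein, was at 800, 666 and 1211 in WT, 164, 231 and 168 in p47phox-/- and 232, 304 and 184 in gp91phox-/-, and fell by 2.04 (standard error 0.23, adjusted p = 0.000736). Angptl4, an inhibitor of lipoprotein lipase induced by fatty acids and hypoxia, was at 322, 355 and 572 in WT, 73, 112 and 75.3 in p47phox-/- and 135, 100 and 89.5 in gp91phox-/-. It fell by 2.07 (standard error 0.27, adjusted p = 0.00132), again with all knockout libraries below WT.

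Abcb1a, a drug and lipid efflux transporter, was at 684, 560 and 683 in WT, 180, 339 and 167 in p47phox-/- and 305, 307 and 289 in gp91phox-/- (-1.32 ± 0.22, adjusted p = 0.00724). Adam23, a member of the ADAM family that binds integrins, was at 761, 502 and 763 in WT, 268, 328 and 312 in p47phox-/- and 157, 120 and 200 in gp91phox-/-, the genotypes being called different (adjusted p = 0.0307), with a combined change of -1.61 ± 0.21 (adjusted p = 0.00154).

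Lcn2, the siderophore-binding protein lipocalin-2, was at 240, 1048 and 175 in WT, 22.7, 11.4 and 11.4 in p47phox-/- and 40, 40.4 and 128 in gp91phox-/-. WT replicate 2 was far above the other WT libraries, and all knockout libraries were below all of WT. The log2 fold change was -3.54 ± 0.57 (adjusted p = 0.00599), and without WT replicate 2 it was -2.76 (adjusted p = 0.0406). Lcn2 was not called with the knockouts as 1 group (adjusted p = 0.114). Heg1, a membrane protein of endothelial cells, and Stat4, the transcription factor of IL-12 signalling, fell further in gp91phox-/-. Heg1 averaged 1284 ± 210 in WT, 683 ± 332 in p47phox-/- and 142 ± 22.9 in gp91phox-/- (adjusted p = 0.000976), and Stat4 averaged 1290 ± 92.8, 784 ± 338 and 355 ± 39.4 (adjusted p = 0.0104). Stat4 lost its call with WT replicate 1 left out (adjusted p = 0.0613) or 2 (0.0574).

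TGF-beta is the cytokine that drives much of the maturation of gut macrophages, and 4 genes of the list around it were called lower. Of 21 tested members of the TGF-beta and IL-10 list, Tgfb3, Smad3, Smad7 and Htra1 fell and Vasn rose, with a median of -0.12. Over all genes tested, 1.75% were called lower and 1.39% higher. Il10 itself, called higher, was counted in the list of mature macrophage genes and not in this one. Tgfb3, a ligand, was at 1530, 1109 and 1538 in WT, 531, 403 and 492 in p47phox-/- and 934, 958 and 540 in gp91phox-/- (-1.18 ± 0.20, adjusted p = 0.00795). Smad3, the signal transducer, was at 2686, 3032 and 3256 in WT, 2323, 1727 and 2146 in p47phox-/- and 1738, 1691 and 1837 in gp91phox-/- (-0.65 ± 0.12, adjusted p = 0.0123). Smad7, the feedback inhibitor, changed by -0.74 ± 0.17 (adjusted p = 0.0409). All knockout libraries were below WT for these 3 genes. Tgfb1, Tgfbr1, Tgfbr2 and Smad2 were at -0.06 to 0.20 and not called. Htra1 alone of the 5 kept the call in each fit without 1 library: Tgfb3 lost it without WT replicate 1 (0.0541) or 3 (0.0582), Smad3 without WT replicate 2 (0.0667) or 3 (0.0869), Smad7 in 5 fits (highest 0.207, without WT replicate 3) and Vasn, a TGF-beta trap, in 8 (highest 0.175, without WT replicate 2).

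Other genes with shared rises had no common list. Serpina3f, a protease inhibitor, was at 361, 161 and 387 normalized counts in WT, 784, 779 and 1605 in p47phox-/- and 1844, 2302 and 1627 in gp91phox-/-. It rose by 2.28 ± 0.30 (4.86-fold, adjusted p = 0.00133). Tln2, which links integrins to actin, was at 160, 169 and 115 in WT, 463, 374 and 657 in p47phox-/- and 410, 446 and 502 in gp91phox-/- (1.67 ± 0.21, adjusted p = 0.00115). The knockout libraries of both genes were above WT without exception.

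Rad51b, which takes part in DNA repair by recombination, was at 72.1, 92.5 and 72.2 in WT, 253, 226 and 227 in p47phox-/- and 330, 406 and 235 in gp91phox-/- (1.78 ± 0.23, adjusted p = 0.00115). Mb21d2, of the cGAS-like nucleotidyltransferase fold family, was at 92.8, 45.5 and 69.5 in WT, 189, 172 and 214 in p47phox-/- and 208, 232 and 189 in gp91phox-/- (1.57 ± 0.26, adjusted p = 0.00663). These 4 genes kept the call in each fit without 1 library and with the knockouts as 1 group. Mab21l3 rose by 1.68 ± 0.31 (adjusted p = 0.0118), a call lost without WT replicate 2 (0.0575) or 3 (0.0574).

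Fcgbp, a mucus protein of goblet cells, varied widely between libraries. It was at 3.31, 6.61 and 0 in WT, 6.71, 44 and 667 in p47phox-/- and 535, 57.9 and 268 in gp91phox-/-, so the lowest knockout library was barely above the highest WT library. It was called (5.13 ± 1.19, adjusted p = 0.0391) but not in 5 of the 9 fits without 1 library, those without any WT library or gp91phox-/- replicate 1 or 3 (highest adjusted p = 0.186), and its log2 fold change ran from 4.27 without p47phox-/- replicate 3 and 4.29 without WT replicate 3 to 5.75 without WT replicate 2 and 5.88 without p47phox-/- replicate 1. None of 17 epithelial and mucus genes was called by limma or edgeR and 1 by DESeq2 (2 had an unadjusted p under 0.05), with a median of -0.02. Their summed level was 2300 to 5052 in WT, 1227 to 2937 in p47phox-/- and 3153 to 5866 in gp91phox-/-, and its part in the Fcgbp result was not tested. Btbd11, Bspry, Chst11 and Fbxo21, at 2.37, -1.49, -1.21 and -1.03, had adjusted p of 0.0494, 0.0496, 0.0493 and 0.0139 and were also among the named genes that lost the call without single libraries. Btbd11 and Chst11 lost it in 8 fits without 1 library (highest 0.0976 and 0.206), the Btbd11 value being 1.39 without WT replicate 1, Bspry in 7 (0.218) and Fbxo21 without WT replicate 1 (0.0741) or 3 (0.0934).

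**Figure D3:**
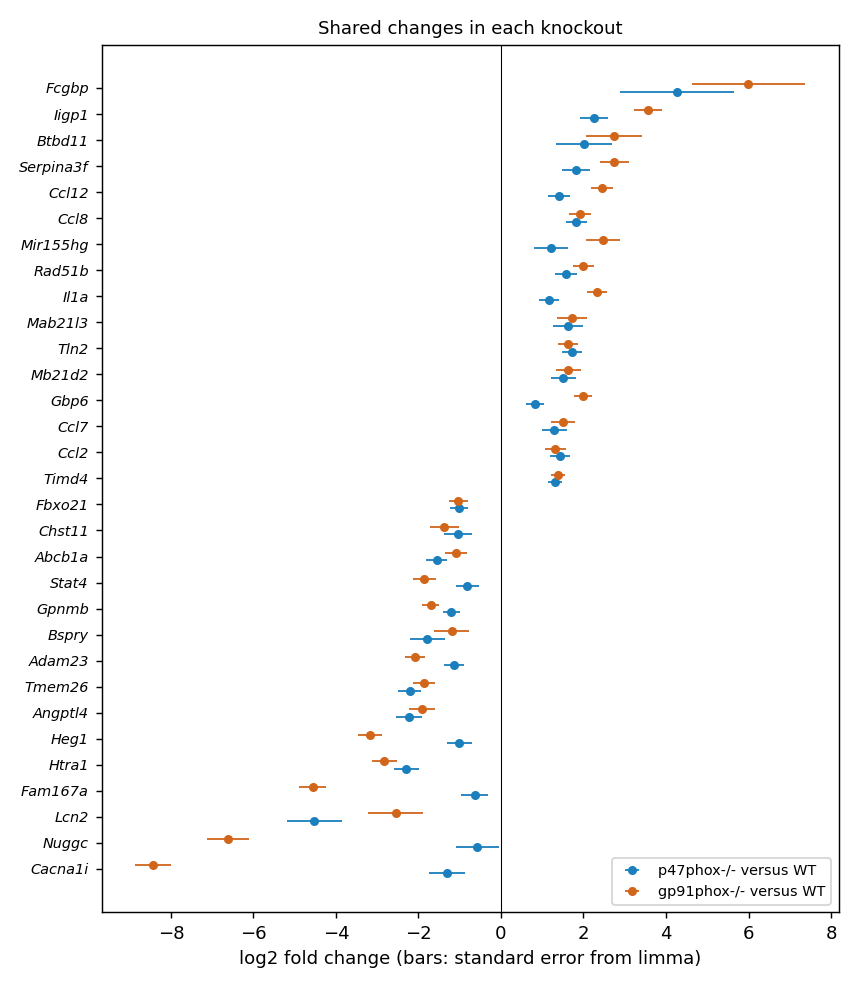
Log2 fold change (horizontal axis) versus WT in p47phox-/- (blue) and gp91phox-/- (orange) for 31 genes with shared direction; points are limma estimates and bars standard errors. Values of the 2 genotypes lie close together for Timd4, Ccl2 and Ccl8, and far apart for Cacna1i, Nuggc and Fam167a, whose gp91phox-/- libraries hold few or no reads, so that their position depends on the pseudocount.

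Other pathways showed few calls. Of 29 genes of the NRF2, glutathione and peroxide scavenging list, which includes the antioxidant response, 1 was called, Nfe2l2 itself (0.54 ± 0.10, adjusted p = 0.0161). Nfe2l2 averaged 11822 ± 1248 in WT, 12036 ± 236 in p47phox-/- and 24336 ± 890 in gp91phox-/-, so the rise was in gp91phox-/-, and it was not called without WT replicate 2 (adjusted p = 0.0803) or 3 (0.0535). The list's median was -0.03. MHC class II presentation had 0 of 14 called higher and 2 lower, H2-Eb2 and H2-Ob, both of which B cells express. H2-Eb2 averaged 909 in WT, 807 in p47phox-/- and 56.2 in gp91phox-/-. Of 20 genes of the unfolded protein response, Hyou1 was called lower, and of 25 of glycolysis and hypoxia, Ndrg1. Toll-like receptors and adaptors had 2 of 21 called higher, Tlr2 and Ly86, at 0.78 and 0.55. The calls of H2-Ob, Hyou1, Ndrg1, Tlr2 and Ly86 each rested on at least 1 WT library, with highest adjusted p of 0.163, 0.159, 0.073, 0.0585 and 0.15 when it was left out. H2-Ob, Hyou1 and Ly86 also lost the call without single knockout libraries, and in 7, 5 and 6 of the 9 fits in all.

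Alternative activation and lectin genes had 2 of 22 called higher, Mgl2 and Clec10a, its near relative (0.79 ± 0.15, adjusted p = 0.0121; not called without WT replicate 3, adjusted p = 0.0804). No gene was called among 20 of phagocytosis, Fc and scavenger receptors (7 with an unadjusted p under 0.05), 31 nuclear-encoded oxidative phosphorylation genes (8, all higher; list median 0.25), 21 of cholesterol synthesis and efflux (1) and 22 of the cell cycle (2). edgeR called none in these 4 lists either, and DESeq2 called 1 phagocytosis gene and 1 cell cycle gene. Among all 30 lists, 9 had no call. They held 151 tested genes, 28 with an unadjusted p under 0.05, of which edgeR called 0 and DESeq2 5.

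**Figure D4:**
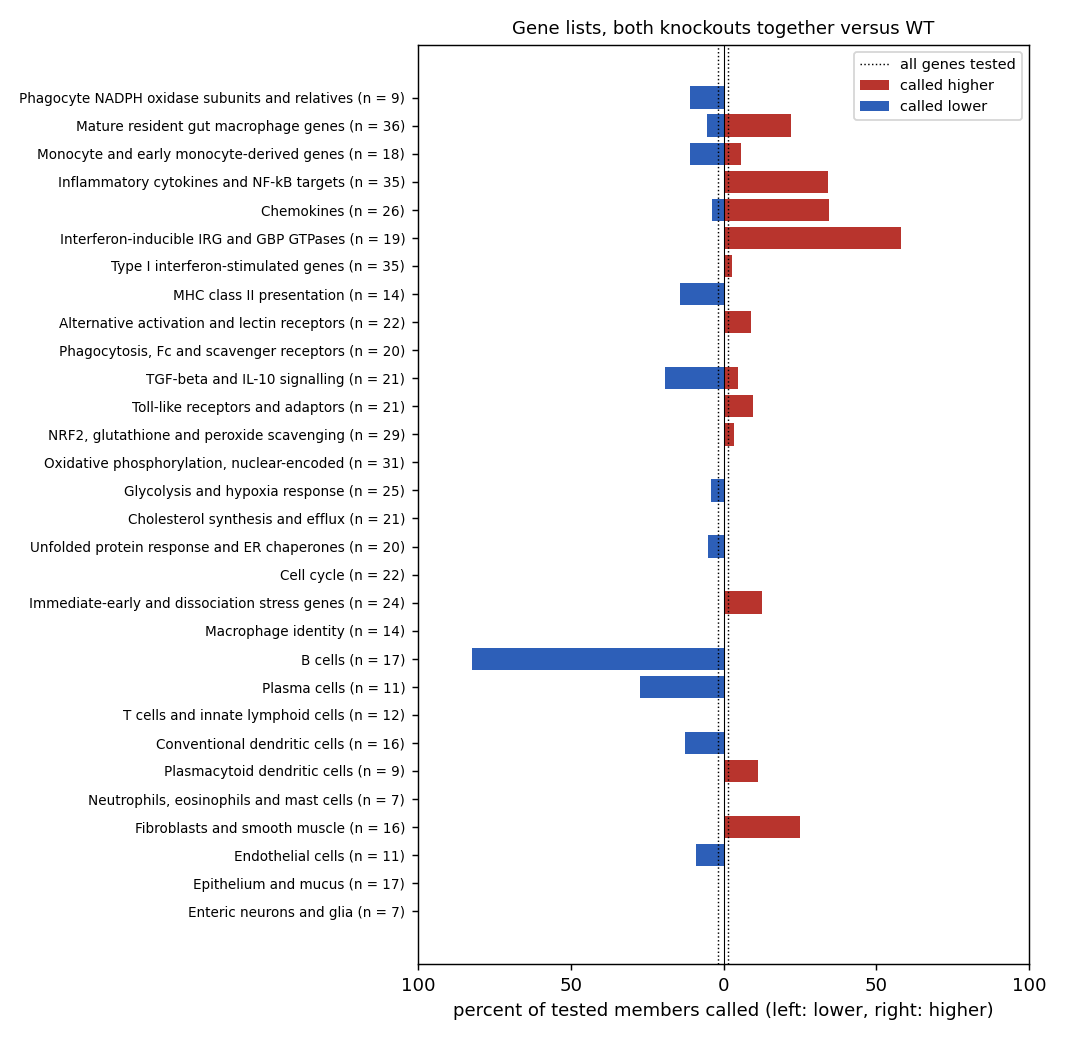
Percent of the tested members of each list called in both knockouts together versus WT (horizontal axis; red to the right, higher; blue to the left, lower), with the number tested beside each name. Dotted lines mark the share over all genes tested (1.39% higher and 1.75% lower). The GTPase list (11 of 19), the chemokines (9 of 26) and the inflammatory list (12 of 35) reach farthest right, and the B cell list (14 of 17) farthest left.

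Markers of other cell types moved with genotype and stood beside these results. B cell genes made up the greatest share of called genes of any list, with 14 of 17 called lower, but the change was in gp91phox-/-. Cd79a, a chain of the B cell receptor, was at 2892, 5299 and 2728 normalized counts in WT, 2412, 4439 and 2220 in p47phox-/- and 5.46, 10.3 and 15.2 in gp91phox-/-. p47phox-/- overlapped WT, and gp91phox-/- libraries held almost no Cd79a. The combined log2 fold change of -4.32 ± 0.32 (adjusted p = 7.12e-05) is the mean of -0.27 ± 0.37 in p47phox-/- and -8.36 ± 0.37 in gp91phox-/-. The list's median was -0.18 in p47phox-/- and -7.39 in gp91phox-/-, and -3.55 in both together. It was -3.61 when Vpreb3, with 0 reads in gp91phox-/-, was set at the limit that 3 reads over the group allow. Summed B cell markers were 26913 to 45839 in WT, 25115 to 38454 in p47phox-/- and 6254 to 8241 in gp91phox-/-, with 1 marker, Vpreb3, at 0 in all gp91phox-/- libraries. Of the 14, Cd22 and Vpreb3 lost their call with WT replicate 2 left out (adjusted p = 0.107 and 0.105), among others.

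Blk and Ms4a1, a B cell kinase and the CD20 antigen, had opposite signs in the 2 genotypes only because p47phox-/- was at 0.09 ± 0.57 and 0.09 ± 0.67. Blk was at 841, 1662 and 1099 in WT, 1225, 1667 and 899 in p47phox-/- and 2.73, 1.21 and 14.3 in gp91phox-/-. Some genes that met the rule for shared falls shared this form. Cacna1i, a calcium channel subunit, was at 298, 436 and 314 in WT, 128, 150 and 136 in p47phox-/- and 0 in all 3 gp91phox-/- libraries, at least 458-fold lower than WT there (3 reads over the group taken as the floor) and 2.49-fold lower in p47phox-/- (adjusted p = 0.177). Nuggc, a gene of germinal centre B cells, was at 136, 185 and 154, at 119, 82.6 and 118, and at 0, 1.21 and 0.894 in the same order. From 584 and 3 reads, the ratio of WT to gp91phox-/- was 206, with a 95% exact binomial interval of 70.1 to 1001 that covers counting error only. Fam167a was at 268, 430 and 322 in WT, 262, 183 and 205 in p47phox-/- and 10, 15.7 and 14.3 in gp91phox-/-. These 3 were called in the combined comparison (adjusted p = 7.12e-05, 0.00107 and 0.000541) but not in p47phox-/- versus WT (0.177, 0.636 and 0.38).

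Plasma cell markers had 3 of 11 called lower, Jchain, Mzb1 and Igha, and summed to 87282 to 229021 in WT, 46870 to 117496 in p47phox-/- and 27184 to 34588 in gp91phox-/-. Igha, the constant region of IgA, was at 75935, 185267 and 56997 in WT, 82375, 21649 and 63944 in p47phox-/- and 2525, 5292 and 1403 in gp91phox-/-. Values of p47phox-/- overlapped WT, and those of gp91phox-/- did not. Jchain and Mzb1 lost their call with WT replicate 2 left out (adjusted p = 0.137 and 0.0892), among others, and Mzb1 was then at -1.71 in place of -2.31. With the B and plasma cell lists and all immunoglobulin segments removed, 411 genes were called, 203 higher and 208 lower. Of the named genes that remained in that fit, 93 of 93 kept the call.

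Fibroblast and smooth muscle markers moved the other way, with 4 of 16 called higher, Col3a1, Sparc, Acta2 and Tagln, a median of 0.63, and sums of 8388 to 11508 in WT, 14401 to 22073 in p47phox-/- and 11933 to 14291 in gp91phox-/-. Every knockout library was above every WT library in that sum. Sparc, a matrix protein, was at 1613, 1269 and 1241 in WT, 3297, 2444 and 2947 in p47phox-/- and 2091, 1999 and 2534 in gp91phox-/-, and rose by 0.88 ± 0.14 (adjusted p = 0.00498). Sparc kept the call in each fit without 1 library, and the others lost it without WT replicate 2 or 3 among others (highest adjusted p = 0.13 for Col3a1, 0.0585 for Acta2 and 0.17 for Tagln). The part of these cells in the shared rises, of chemokines such as Ccl2 and Ccl7 among them, was not tested. Of 11 endothelial genes, Pecam1 was called lower (-1.09 ± 0.24, adjusted p = 0.0333; lost in 6 fits without 1 library, highest 0.156 without WT replicate 3), and the list's median was -0.95.

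Genes of T cells and innate lymphoid cells (12 tested), of neutrophils, eosinophils and mast cells (7) and of enteric neurons and glia (7) had no call by limma or edgeR, with 1, 2 and 3 at an unadjusted p under 0.05, and DESeq2 called 0, 1 and 1. Dendritic cell markers gave Flt3 and Cd209a lower, with log2 fold changes of -3.38 and -3.17 in gp91phox-/- and of -0.06 and 0.38 in p47phox-/- (highest adjusted p without 1 library 0.163 and 0.131, both without WT replicate 2), and summed to 43023 to 49089 in WT, 43065 to 46900 in p47phox-/- and 46143 to 47553 in gp91phox-/-. Siglech, a plasmacytoid dendritic cell lectin that microglia also express, was at 240, 301 and 334 in WT, 712, 1124 and 846 in p47phox-/- and 460, 439 and 409 in gp91phox-/-. It rose by 1.10 ± 0.18 (adjusted p = 0.00598), more in p47phox-/- than in gp91phox-/- (adjusted p = 0.00908).

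**Figure D5:**
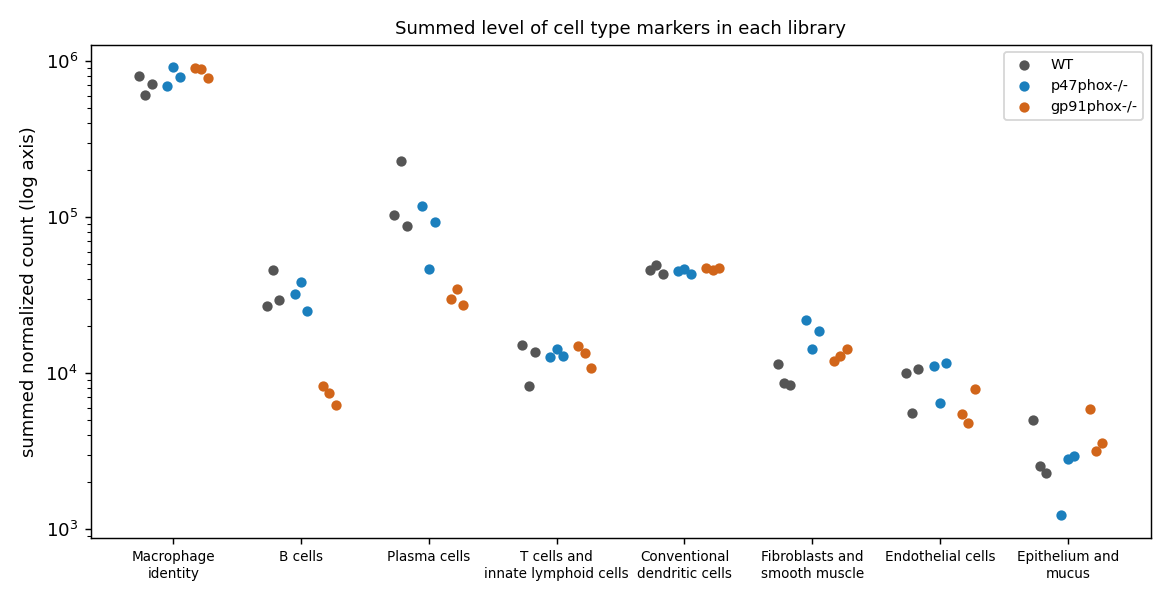
Summed normalized count of the markers of 8 cell types (log axis) in each library; each point is a library, coloured by genotype. The sums of macrophage identity genes overlapped between the groups. B cell sums were lowest in gp91phox-/- (6254 to 8241), and fibroblast and smooth muscle sums were higher in all knockout libraries than in WT.

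Gm41885, a predicted gene, had the greatest combined change among the 33 genes called with opposite signs. It was at 4.97, 5.14 and 0 in WT, 642, 1114 and 875 in p47phox-/- and 0.91, 3.62 and 1.79 in gp91phox-/-. The combined log2 fold change of 3.91 ± 0.68 (adjusted p = 0.00903) therefore stood for p47phox-/- alone (8.01 ± 0.79), with -0.19 ± 0.79 in gp91phox-/-. Without WT replicate 3 it was 3.04 (adjusted p = 0.0245). Only the p47phox-/- libraries reached the 10 normalized counts of the filter, so the gene entered the test through the group where it was high. Its adjusted p is therefore no independent support for that rise. Gm41885 was not tested in the fits that left out a p47phox-/- library.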

How the data were processed

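RNA of sorted colon macrophages was sequenced as paired-end libraries, 3 per genotype. Per the labels' protocols and the submitters' processing notes, bcl2fastq 2.19, Cutadapt, STAR 2.5.2b (mm10), featureCounts and DESeq2 were used; the strand counted and the gene annotation are not given in the sources used here, so overlapping or antisense genes cannot be told apart. The deposited table holds normalized counts, that is, a signal for which the authors scaled the reads of each library by its size factor. Whole reads were recovered from 100% of values (tolerance 0.01).

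Values were analysed as log2(normalized count + 1) in limma 3.58.1 (R 4.3.3), 1 fit of 3 groups with a mean-variance trend and Benjamini-Hochberg adjustment over 14404 genes, and the threshold was an adjusted p of 0.05. Fold changes are on that scale, which understates changes of low genes. The contrast was the mean of the 2 knockout means minus WT. Errors of log2 values are standard errors and errors of normalized counts SD over 3 libraries. Replicate numbers did not pair the libraries. Gene positions, symbols and promoters are from RefSeq tables for GRCm38.p6, the patched form of the mm10 assembly; coordinates of the deposited table itself were not used. Motifs were searched in 300 bases per promoter.

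Named were genes called in the same direction in both genotypes, without overlap between knockout and WT libraries and with a mean of at least 50: the 12 per direction with the greatest value of the smaller of the 2 genotypes' changes, and the next 4 per direction by combined change. Immunoglobulin and T cell receptor segments and unnamed genes were left out. Added were the targeted genes, called members of 30 lists and the 3 genes of opposite signs with the greatest combined change. Some genes that met this rule are not reported here. Members of lists that were not called, and genes compared with them, were named after their values were seen. The comparison, its members and the lists were chosen with earlier results of these data known, and a list placed by known function is no independent evidence of direction. The lists covered 19 states and pathways and 11 cell types. Alternatives were other pseudocounts, filters and scalings, the replicate block, array weights, no trend, 2 groups, tests of the recovered reads in edgeR 4.0.16 and DESeq2 1.42.0, removal of B and plasma cell genes, and each library left out. Only the combined contrast in limma was run on simulated counts, in which both knockouts had the same change. The other steps were not simulated.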

Additional observations from a re-analysis of the deposited data

Results flagged for a closer look

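The knockouts differed from each other, by limma's test of the difference with adjusted p under 0.05, in 55 of the genes named. All values here are log2 differences, the change from WT in gp91phox-/- minus that in p47phox-/-, and both changes share the 3 WT libraries. Over all genes tested, 1430 (9.93%) differed in this way.

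B cell and plasma cell genes were lower in gp91phox-/- than in p47phox-/-. The differences were -8.77 for Pax5, -8.09 for Cd79a, -7.93 for Blk, -7.81 for Fcmr, -7.69 for Fcer2a, -7.55 for Ms4a1, -7.38 for Cr2, -6.97 for Ly6d, -5.90 for Vpreb3, -5.80 for Spib, -5.12 for Ighd, -5.02 for Ebf1 and -0.79 for Cd22. Those of Igha, Mzb1 and Jchain were -4.19, -3.89 and -3.44, and those of H2-Eb2 and H2-Ob -3.80 and -2.15. Cacna1i (-7.12), Nuggc (-6.04), Fam167a (-3.93), Heg1 (-2.16) and Stat4 (-1.04) had the same sign, as had the dendritic cell genes Cd209a (-3.54) and Flt3 (-3.32). Values of genes with 0 reads in gp91phox-/-, Cacna1i and Vpreb3, depend on the pseudocount.

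Other genes were higher in p47phox-/-. Gm41885 stood at -8.20, Vasn at -1.25, Folr2 at -1.23, Cxcl1 at -1.12, Siglech at -1.01, Adam23 at -0.95 and Spn at -0.72.

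Interferon-inducible, inflammatory and chemokine genes were mostly higher in gp91phox-/-. The GTPases gave 1.48 for Gbp5, 1.31 for Iigp1, 1.30 for Gbp8, 1.20 for Gbp4, 1.18 for Gbp6, 1.13 for Irgm2, 0.84 for Gbp3 and 0.78 for Igtp. Among inflammatory genes the differences were 2.22 for Ptgs2, 1.37 for Ccrl2, 1.17 for Il1a, 1.03 for Nfkbiz and 1.00 for Tnfaip3. Chemokines gave 1.81 for Ccl5, 1.19 for Cxcl9, 1.05 for Ccl12 and 1.04 for Ccl4. Ncf1, the gene targeted in p47phox-/-, was at 2.04, Thbs1 at 1.56, Btg2 at 1.36, Nfe2l2 at 1.01, Egr2 at 0.84 and Hyou1 at 0.61.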

How the results depend on the processing

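Against 452 genes called (200 higher, 252 lower, 419 of shared sign), the count was 186 (68 higher, 118 lower, 166 of shared sign) without the mean-variance trend and 29 (20 higher, 9 lower) with the 6 knockout libraries as 1 group, in which the difference between genotypes counts as spread. DESeq2 on recovered reads called 1017 (452 higher, 565 lower, 955 of shared sign), and 253 (110, 143 and 231) were called without p47phox-/- replicates 2 and 3. Leaving out 1 library at a time gave 174 to 628 genes called, 62 to 284 higher, 112 to 344 lower and 140 to 600 of shared sign; the lowest was without WT replicate 2 and the highest without p47phox-/- replicate 2. Fits that leave libraries out hold fewer samples, and the cause of these differences in count was not tested. Other pseudocounts, filters, scalings, array weights, edgeR (478 called) and the removal of B and plasma cell genes left the total within 1.5 times.

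With the replicate block, 371 genes were called (166 higher, 205 lower, 346 of shared sign). The numbers did not pair the libraries: deviations of same-numbered libraries correlated at -0.04 to 0.08, and 5 of 9 libraries correlated best with their own number. Of the 109 named genes called, 49 kept the call in each fit without 1 library that tested them. Gm41885, 1 of the 49, was tested in 6 of these 9 fits. Under the block 96 kept the call, with edgeR 104 and with DESeq2 109. It was kept by 85 without a filter on low genes, 46 without the mean-variance trend and 17 with the knockouts as 1 group. None of the 109 reversed in any of these fits. Having only 3 libraries per group limits the precision, and intervals from reads cover counting error only.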

Other observations

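With the 6 knockout libraries treated as 1 group, 29 genes were called in limma, and those described here were picked with their values in view. Fold changes, errors and adjusted p are those of the fit of 3 groups used in the report; in the fit with 1 knockout group the adjusted p was 0.0163 for Vcam1, 0.0241 for Plau, 0.0385 for Cyfip2 and 0.0167 for F830016B08Rik. Vcam1, an adhesion molecule for integrins of lymphocytes and monocytes, was at 12089, 11030 and 12401 normalized counts in WT, 26424, 20325 and 23549 in p47phox-/- and 24991, 30374 and 20782 in gp91phox-/-. No knockout library came near WT, and the log2 fold change was 1.03 ± 0.14 (adjusted p = 0.00154). Plau, the urokinase plasminogen activator, averaged 10110 ± 3049 (SD, n = 3) in WT, 20733 ± 875 in p47phox-/- and 24608 ± 1447 in gp91phox-/- and rose by 1.21 ± 0.17 (adjusted p = 0.00247). Rnase4, a secreted ribonuclease, averaged 2120 ± 208, 4209 ± 566 and 4286 ± 563, with log2 fold changes of 0.98 ± 0.14 in p47phox-/- and 1.01 ± 0.14 in gp91phox-/-. St3gal6, a sialyltransferase, rose by 1.07 ± 0.16 and 0.99 ± 0.16 in the same order. Vdr, the vitamin D receptor, was at 2173, 2102 and 2422 in WT, 1011, 1185 and 1329 in p47phox-/- and 984, 1322 and 1228 in gp91phox-/-, and fell by 0.93 in each genotype (standard error 0.15). Cyfip2, a regulator of actin, fell by 0.88 (standard error 0.14, adjusted p = 0.00555).

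F830016B08Rik, a predicted gene that RefSeq lists between Gm4951 and Iigp1, was at 34, 11 and 64.9 in WT, 338, 283 and 172 in p47phox-/- and 253, 388 and 462 in gp91phox-/-. It moved in the same direction as both neighbours, by 3.32 ± 0.45 (adjusted p = 0.00191). H2-Q7, a non-classical MHC class I gene, averaged 6943 ± 738 in WT, 11455 ± 890 in p47phox-/- and 12658 ± 1804 in gp91phox-/-. H2-Q5 had the same log2 fold change of 0.79 ± 0.12, but the H2-Q genes are near-identical copies, so how reads were shared between them is uncertain.

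Both immunoglobulin segments among the 29 genes fell in both knockouts. Ighv6-3, a heavy chain variable segment, was at 1654, 1213 and 1318 in WT, 146, 44.8 and 134 in p47phox-/- and 74.6, 124 and 42 in gp91phox-/-. Ighg3, the constant region of IgG3, was at 1130, 1101 and 733 in WT, 31.1, 65.1 and 11.4 in p47phox-/- and 11.8, 1.81 and 0 in gp91phox-/-. Cd79a, by contrast, overlapped WT in p47phox-/-. Variable segments are near-identical copies in part, and which cells or clones carried these reads was not tested.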
